A study of Mus musculus with 11 samples.

Results

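Neutrophil granule and receptor genes were followed across normal mouse stomach and 2 kinds of genetically induced gastric cancer. The set named 10 genes, and a gene was taken where an array probe set carried its symbol alone, which held for 8 of the 10, among 19938 genes measured. These were S100a8 and S100a9 (cytosolic calcium-binding proteins), Ltf, Ngp and Camp (proteins of the specific granules), Mpo (an enzyme of the azurophil granules), Csf3r (the receptor for granulocyte colony-stimulating factor) and Csf3 (that factor itself). The formyl peptide receptors Fpr1 and Fpr2 were not analysed here. Each of the 8 had a single probe set.

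Neutrophils are short-lived phagocytes that mature in the bone marrow and are released into blood. They make their granules in sequence. Azurophil granule proteins such as Mpo are transcribed in early precursors and specific granule proteins such as Ltf, Ngp and Camp in later ones, so circulating and tissue neutrophils carry much of the protein with little of its mRNA. The S100a8 and S100a9 proteins form the heterodimer calprotectin and are abundant in the cytosol of mature neutrophils and monocytes. Csf3, secreted by stromal, epithelial and myeloid cells, drives neutrophil production through Csf3r. S100a8, S100a9 and Ltf can also be made by epithelium, where they take part in mucosal defence.

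Total RNA of 11 stomach samples was hybridised to Affymetrix arrays, 1 array per sample. NGE was gastric epithelium of normal histology, 4 samples from Pdx1-1-Cre-negative mice. The 4 pChePS_GC samples were diffuse-type cancers of mice that carried Pdx-1-Cre together with Cdh1F/+, Trp53F/F and Smad4F/F, so that Cre acts on a single floxed allele of Cdh1 and both of Trp53 and Smad4. The 3 pCP_GC samples were diffuse-type cancers of mice with Pdx-1-Cre plus Cdh1F/F and Trp53F/F, with wild-type Smad4 as far as the labels say. Both cancer groups share Pdx-1-Cre, the floxed Trp53 alleles and the histology. The labels state that no treatment was given. Whether the Cre-negative mice carried floxed alleles, and the age of any mouse, is not given in the labels. The Pdx1 promoter is active in epithelium of the developing pancreas, duodenum and distal stomach. The samples were bulk tissue. A change in the number of neutrophils, in RNA per neutrophil or in other cells that make these RNAs therefore cannot be told apart. The labels do not tie each sample to a mouse of its own; the p-values therefore reflect how far these samples spread, and that spread may be technical.

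The promoters of the 4 genes that were higher in both cancer groups are shown because these genes carry the result. RefSeq (GRCm38.p6) held a promoter for 9 of the 10 named genes. Each line gives the 250 bases before the annotated start, 5′ to 3′ on the strand of the gene. The windows are chr3:90668821-90669070 (plus strand) for S100a8, chr3:90695722-90695971 (minus strand) for S100a9, chr9:111019042-111019291 (plus strand) for Ltf and chr4:126024409-126024658 (plus strand) for Csf3r. Capitals mark matches, on either strand, to 3 patterns of letters: TTNNGNAA, a loose form of the site of C/EBP factors, GAGGAA, the core of many PU.1 sites, and TATAAA, the TATA box. C/EBP factors and PU.1 are transcription factors of the myeloid lineage.
S100a8: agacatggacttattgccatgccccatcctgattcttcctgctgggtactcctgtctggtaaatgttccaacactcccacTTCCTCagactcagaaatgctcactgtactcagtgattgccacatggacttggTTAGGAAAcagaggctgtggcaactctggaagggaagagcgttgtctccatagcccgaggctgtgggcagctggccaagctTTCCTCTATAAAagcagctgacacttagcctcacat
S100a9: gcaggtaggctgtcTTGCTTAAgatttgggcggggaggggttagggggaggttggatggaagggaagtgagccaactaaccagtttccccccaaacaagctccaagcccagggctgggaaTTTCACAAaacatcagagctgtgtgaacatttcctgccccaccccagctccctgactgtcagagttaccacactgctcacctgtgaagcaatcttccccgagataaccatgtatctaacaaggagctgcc
Ltf: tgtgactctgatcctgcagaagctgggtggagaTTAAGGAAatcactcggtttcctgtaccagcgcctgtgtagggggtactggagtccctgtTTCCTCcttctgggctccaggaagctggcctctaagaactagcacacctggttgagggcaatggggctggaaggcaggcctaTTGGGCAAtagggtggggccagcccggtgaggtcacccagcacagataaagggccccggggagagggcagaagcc
Csf3r: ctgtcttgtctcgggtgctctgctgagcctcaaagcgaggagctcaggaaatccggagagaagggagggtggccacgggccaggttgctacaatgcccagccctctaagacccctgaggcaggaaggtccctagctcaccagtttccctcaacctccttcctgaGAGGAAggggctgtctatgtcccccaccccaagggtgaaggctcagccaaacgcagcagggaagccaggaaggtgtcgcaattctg
The C/EBP-type letters stood in 36.9% of the 32841 RefSeq promoter windows of this length, the PU.1-type letters in 23.3% and the TATA letters in 12.4%, so single matches are common. Among these 4 promoters, S100a8 held 1 C/EBP-type match, 2 PU.1-type matches and a TATA match 30 to 25 bases before its start, directly next to a PU.1-type match. S100a9 held 2 C/EBP-type matches, Ltf held 2 C/EBP-type matches and 1 PU.1-type match, and Csf3r held 1 PU.1-type match. Of the granule genes that were not higher, Ngp held 3 C/EBP-type matches, Mpo held 2 PU.1-type matches and Camp held 0 matches to any of the 3 patterns. A match describes letters in a window and not binding, and genes with and without a rise both held matches.

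Levels are the authors' normalized log2 signals, on which a difference of 1 is a doubling. Pairs of arrays within a group correlated across genes at r = 0.962 to 0.994, and NGE arrays were the most alike. The 95th percentile of the mean level of 1194 olfactory and vomeronasal receptor genes, a family of chemosensory genes not expected in stomach, stands here for dim signal: 7.24 in NGE, 6.99 in pChePS_GC and 6.86 in pCP_GC. Of the floxed genes, Cdh1 averaged 12.98 (SD 0.05, n = 4) in NGE against 9.60 (SD 1.09, n = 4) in pChePS_GC and 11.20 (SD 0.76, n = 3) in pCP_GC, and fell in both (limma adjusted p = 0.000315 and 0.0137). Smad4 averaged 11.09, 10.49 and 11.44 in the same order (SD 0.05, 0.40 and 0.05) and fell in pChePS_GC (adjusted p = 0.0152). Its pChePS_GC arrays read 10.18, 10.61, 11.02 and 10.17, so replicate 3 lay close to NGE (11.05 to 11.16). Trp53 was not examined here. Mean levels of 10 gastric epithelial markers lay at 13.53 to 13.58 in NGE, 11.15 to 12.09 in pChePS_GC and 11.80 to 12.54 in pCP_GC, and the keratin Krt8 lay at 13.69 or above on every array. Xist was at 11.54 to 12.66 in NGE and at 5.57 to 6.02 in the cancers, so both comparisons with NGE also set arrays of opposite sex-linked levels against each other.

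S100a8, S100a9, Ltf and Csf3r rose in both cancer groups, while the azurophil enzyme Mpo and the specific granule peptide Camp were slightly lower. Against NGE, 6 of the 8 genes passed in pChePS_GC, 4 higher and 2 lower, where 42.1% of all genes passed (18.7% higher and 23.4% lower; limma adjusted p under 0.05). In pCP_GC 7 of the 8 passed, 4 higher and 3 lower, against 51.8% of all genes (20.0% higher and 31.8% lower). The median difference of the 8 genes was 1.08 in pChePS_GC and 0.46 in pCP_GC, beside -0.10 and -0.12 over all genes. Both comparisons use the same 4 NGE arrays. With each array centred on its own median the median over all genes moved to -0.27 and -0.33. The calls then split into 2695 higher and 9101 lower in pChePS_GC, from 3728 and 4658, and into 2686 and 9716 in pCP_GC, from 3994 and 6343. Under that centring the 8 genes still gave 4 higher and 2 lower in pChePS_GC, and gave 3 and 3 in pCP_GC.

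**Figure D1:**
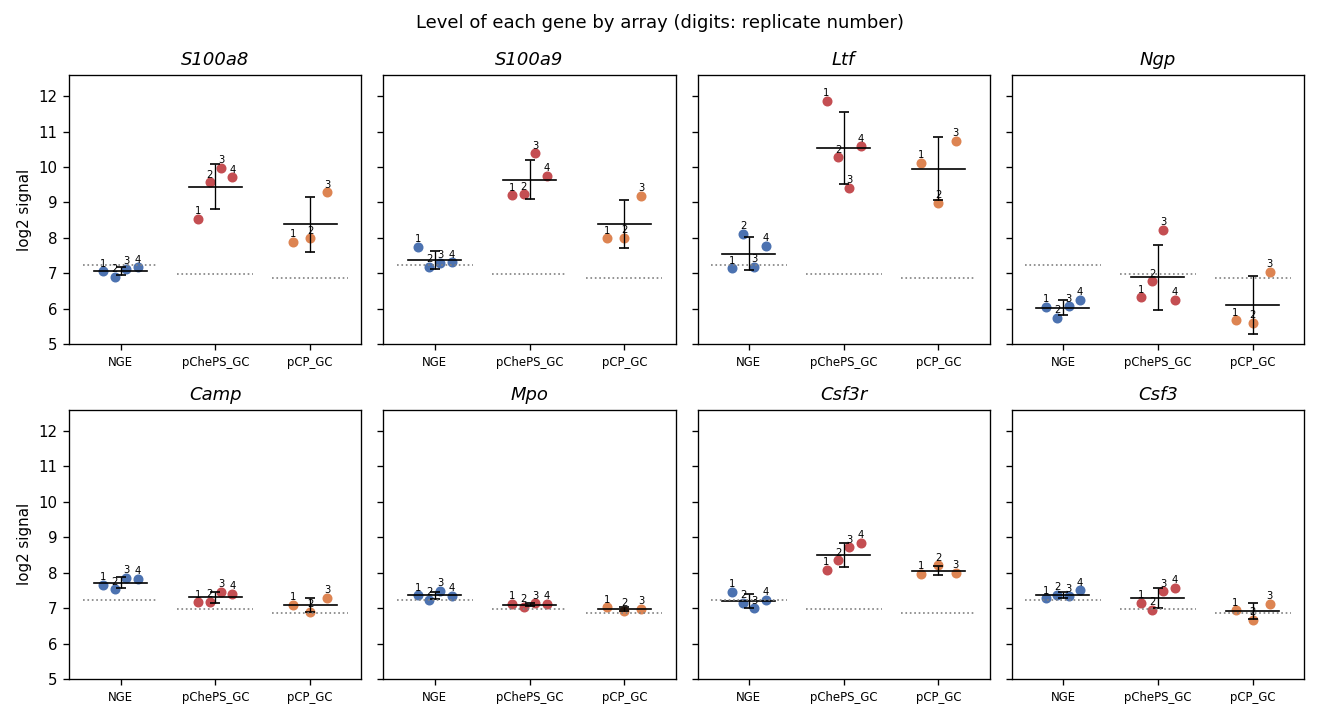
Log2 signal of the 8 measured genes on each of the 11 arrays, 1 panel per gene, with the group on the x axis, points for arrays (digits give the replicate number), a bar and whiskers for the mean and SD, and a dotted line for the 95th percentile of receptor genes in that group (7.24, 6.99 and 6.86). S100a8, S100a9, Ltf and Csf3r lie above NGE on every cancer array, and Ngp stands out on pChePS_GC replicate 3 at 8.23 and pCP_GC replicate 3 at 7.04.

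S100a8 encodes the smaller chain of calprotectin. On the NGE arrays it read 7.06, 6.91, 7.13 and 7.17, the pChePS_GC arrays gave 8.55, 9.56, 9.97 and 9.71, and those of pCP_GC 7.88, 7.99 and 9.28. All 4 NGE arrays were under the dim level, and every cancer array was above every NGE array. The difference was 2.38 in pChePS_GC (SE 0.34, 5.21-fold, limma adjusted p = 0.000377) and 1.32 in pCP_GC (SE 0.37, 2.49-fold, adjusted p = 0.0123). With NGE at the dim level, these folds may understate the change.

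S100a9 encodes the larger chain. Its NGE arrays read 7.75, 7.19, 7.29 and 7.31, the pChePS_GC arrays gave 9.20, 9.23, 10.38 and 9.74, and those of pCP_GC 7.99, 8.005 and 9.18. The groups of cancer arrays did not overlap with NGE, although NGE replicate 1 (7.75) lay close below the lowest pCP_GC array. S100a9 rose by 2.26 in pChePS_GC (SE 0.31, 4.77-fold, adjusted p = 0.000315). In pCP_GC it rose by 1.01 (SE 0.34, 2.01-fold, adjusted p = 0.0284). That pCP_GC call was lost without pCP_GC replicate 3 (difference 0.61, adjusted p = 0.12), without NGE replicate 2, 3 or 4 (adjusted p = 0.0632, 0.0625 and 0.06) and with array centring (0.79, adjusted p = 0.0625). Over all alternatives its adjusted p ran from 0.00684 to 0.12.

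Ltf encodes lactoferrin, an iron-binding protein of specific granules and of mucosal secretions. On the NGE arrays it read 7.14, 8.12, 7.19 and 7.78, the pChePS_GC arrays gave 11.87, 10.27, 9.41 and 10.58, and those of pCP_GC 10.12, 8.99 and 10.74. The cancer arrays were all above the NGE arrays, and their spread was wide, with an SD of 1.02 in pChePS_GC and 0.88 in pCP_GC. The rise was 2.97 in pChePS_GC (SE 0.50, 7.86-fold, adjusted p = 0.00108) and 2.39 in pCP_GC (SE 0.54, 5.25-fold, adjusted p = 0.00445).

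Ngp, the neutrophilic granule protein, is related to the cathelicidins. Its NGE arrays read 6.05, 5.75, 6.07 and 6.25, the pChePS_GC arrays gave 6.32, 6.78, 8.23 and 6.25, and those of pCP_GC 5.67, 5.60 and 7.04. Only pChePS_GC replicate 3 and pCP_GC replicate 3 were above the dim level of their group. The differences were 0.86 (95% interval -0.09 to 1.82, limma adjusted p = 0.126) and 0.07 (-0.96 to 1.11, adjusted p = 0.902), and neither passed. The intervals leave room for rises of more than 1 log2 unit in both groups.

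Camp encodes the cathelicidin precursor of an antimicrobial peptide that also acts on Fpr2. On the NGE arrays it read 7.65, 7.53, 7.85 and 7.83, the pChePS_GC arrays gave 7.17, 7.19, 7.46 and 7.40, and those of pCP_GC 7.10, 6.89 and 7.30. All cancer arrays were below all NGE arrays. Camp fell by 0.41 in pChePS_GC (SE 0.12, limma adjusted p = 0.0178). The pCP_GC arrays dropped by 0.62 (SE 0.13, adjusted p = 0.00266). The pChePS_GC call was lost without NGE replicate 3 or 4 (adjusted p = 0.0533 and 0.0534). Over all alternatives its adjusted p ran from 0.00333 to 0.0534.

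Mpo encodes myeloperoxidase, which makes hypochlorous acid. Its NGE arrays read 7.36, 7.24, 7.49 and 7.35, the pChePS_GC arrays gave 7.12, 7.03, 7.13 and 7.12, and those of pCP_GC 7.02, 6.92 and 6.98. The groups did not overlap, over a whole span of 0.57. The Mpo means (7.36, 7.10 and 6.97) lay just over the dim level of each group (7.24, 6.99 and 6.86). Mpo fell by 0.26 in pChePS_GC (SE 0.08, limma adjusted p = 0.0201). The pCP_GC arrays dropped by 0.38 (SE 0.08, adjusted p = 0.00326). The pChePS_GC call was lost without NGE replicate 3 (adjusted p = 0.0572) or pChePS_GC replicate 2 (adjusted p = 0.0548). Over all alternatives its adjusted p ran from 0.00226 to 0.0572. Dim genes moved the same way: the 1194 receptor genes had a median difference of -0.15 in pChePS_GC and -0.22 in pCP_GC, and 17.8% and 35.5% of them passed as lower. The part of that shift in the falls of Mpo and Camp was not tested.

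Csf3r is carried by the neutrophil lineage from its precursors onward. On the NGE arrays Csf3r read 7.46, 7.15, 6.997 and 7.24, the pChePS_GC arrays gave 8.09, 8.35, 8.72 and 8.84, and those of pCP_GC 7.97, 8.21 and 7.99. Every cancer array lay above every NGE array, and 3 of the 4 NGE arrays were under the dim level. The rise was 1.29 in pChePS_GC (SE 0.16, 2.45-fold, adjusted p = 0.000172) and 0.85 in pCP_GC (SE 0.18, 1.80-fold, adjusted p = 0.00293).

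Csf3, the ligand of that receptor, passed as higher in neither cancer group. Csf3 on the NGE arrays read 7.28, 7.38, 7.33 and 7.50, the pChePS_GC arrays gave 7.15, 6.95, 7.48 and 7.58, and those of pCP_GC 6.94, 6.68 and 7.11. The pChePS_GC arrays lay on both sides of NGE, with a difference of -0.08 (95% interval -0.40 to 0.24, limma adjusted p = 0.656). The pCP_GC arrays were below NGE, and Csf3 fell by 0.46 (SE 0.16, adjusted p = 0.03), a change that lay near the dim level. That call was lost with quantile normalization (adjusted p = 0.108) and without NGE replicate 2, 3 or 4 (adjusted p = 0.0531, 0.0527 and 0.0743) or pCP_GC replicate 1 or 2 (adjusted p = 0.0614 and 0.122). Over all alternatives its adjusted p ran from 0.00517 to 0.122.

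**Figure D2:**
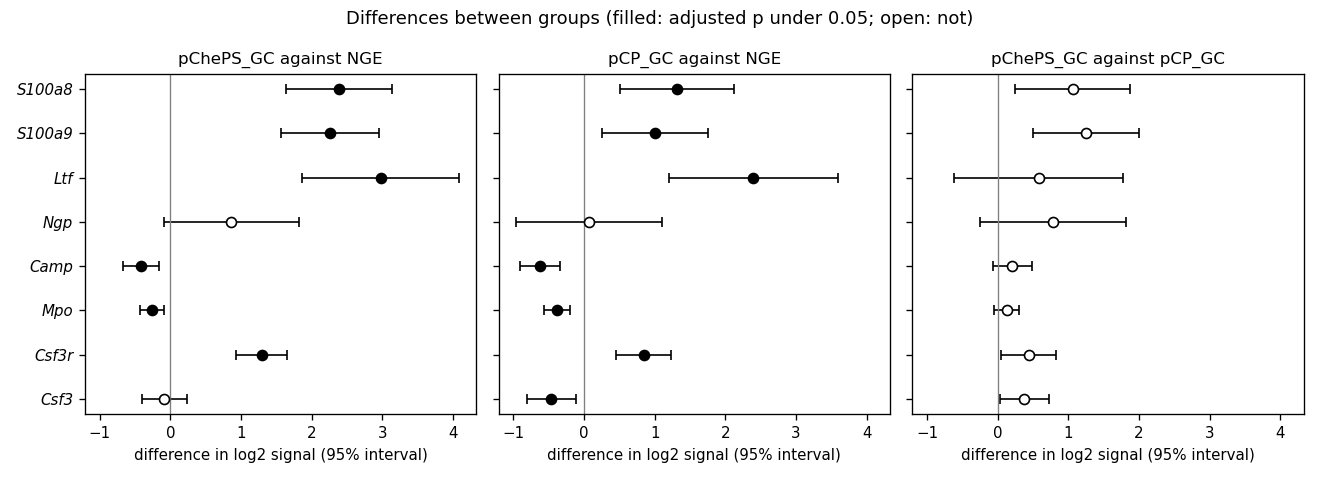
Difference in log2 signal between groups on the x axis, with its 95% interval from limma, for the 8 genes in the 3 comparisons; filled points have an adjusted p under 0.05. S100a8, S100a9, Ltf and Csf3r are filled and above 0 in both comparisons with NGE, from 0.85 to 2.97, and no point is filled in the comparison of the cancer groups.

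The comparison of pChePS_GC with pCP_GC asks whether the cancers with floxed Smad4 and 1 floxed Cdh1 allele differ from those with both Cdh1 alleles floxed. In limma 0 of the 8 genes passed, where 0.366% of all genes did. At an unadjusted p under 0.05 there were 4 of 8 (S100a8, S100a9, Csf3r and Csf3, each higher in pChePS_GC), beside 16.5% of all genes. S100a9 was 1.25 higher in pChePS_GC (95% interval 0.50 to 1.99, adjusted p = 0.144), and the arrays of the groups did not overlap, although pChePS_GC replicate 1 (9.20) and pCP_GC replicate 3 (9.18) nearly met. S100a8 was 1.06 higher (0.25 to 1.87, adjusted p = 0.206), with overlapping groups. Csf3r differed by 0.44 (0.05 to 0.83, adjusted p = 0.255) and Csf3 by 0.38 (0.03 to 0.72, adjusted p = 0.27). Ltf differed by 0.58 (-0.61 to 1.77, adjusted p = 0.601) and Ngp by 0.79 (-0.24 to 1.82, adjusted p = 0.407). The intervals of S100a8, S100a9, Ltf and Ngp all take in a difference of more than 2-fold. Camp (0.21, from -0.07 to 0.49) and Mpo (0.13, from -0.05 to 0.31) had narrow intervals. Their means in pChePS_GC and pCP_GC (Camp 7.30 and 7.10, Mpo 7.10 and 6.97) lay not far over the dim levels of 6.99 and 6.86. A narrow interval there need not bound a difference in RNA.

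The genes did not rank the 7 cancer arrays alike. S100a8 and S100a9 were highest on pChePS_GC replicate 3, then on replicates 4 and 2, and lowest on pCP_GC replicates 1 and 2. Ngp was likewise highest on pChePS_GC replicate 3, with pCP_GC replicate 3 next. Ltf was highest on pChePS_GC replicate 1 (11.87), the array with the lowest S100a8 of its group (8.55), and its 9.41 on pChePS_GC replicate 3 was the lowest of that group. Csf3r was highest on pChePS_GC replicate 4 (8.84) and varied little within pCP_GC (7.97 to 8.21). Within pCP_GC, replicate 3 was highest for S100a8, S100a9, Ltf, Ngp, Camp and Csf3, and replicate 2 was highest for Csf3r.

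**Figure D3:**
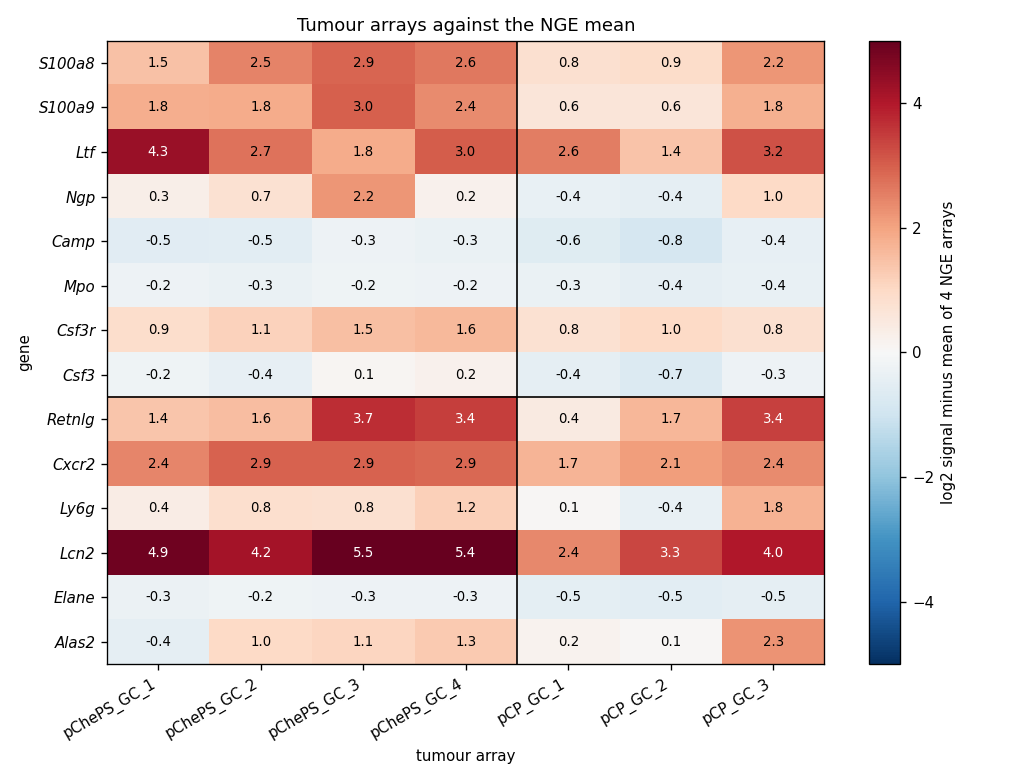
Log2 signal of each of the 7 cancer arrays (x axis) minus the mean of the 4 NGE arrays, as colour and printed value, for the 8 genes (above the line) and for Retnlg, Cxcr2, Ly6g, Lcn2, Elane and the red cell gene Alas2 (below it). S100a8, S100a9, Ngp and Retnlg are highest on pChePS_GC replicate 3, Ltf is highest on pChePS_GC replicate 1, and Mpo, Camp and Elane are below 0 on every cancer array.

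Alas2, the haem synthesis enzyme of red cell precursors and the only gene measured of 8 on the erythroid list, was near NGE (7.19 to 7.33) on pCP_GC replicates 1 and 2 (7.41 and 7.31). It was high on pCP_GC replicate 3 (9.51), at 8.24, 8.34 and 8.57 on pChePS_GC replicates 2, 3 and 4, and at 6.82 on pChePS_GC replicate 1. S100a8 was likewise lowest of its group on pChePS_GC replicate 1 and highest of its group on pCP_GC replicate 3. Within pChePS_GC, S100a8 was highest on replicate 3 and Alas2 on replicate 4. Other genes differed from Alas2: Ltf was highest on pChePS_GC replicate 1 (11.87), and Csf3r was highest of pCP_GC on replicate 2 (8.21). The part of blood in these levels was not tested.

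For the 4 genes whose values spanned at least 2 log2 units, the 3 genes of most like profile were sought over all 11 arrays, as the smallest root mean square difference between profiles centred on their own means. S100a8 and S100a9 were each other's nearest among 19938 genes, at 0.29 log2 units. Next to S100a8 came Tnf, a cytokine of activated macrophages (0.42), and Cxcr2, the chemokine receptor of mature neutrophils (0.45). Next to S100a9 came Rgs16, a regulator of G protein signalling (0.39), and Aldoc, a glycolytic aldolase (0.41). Ltf lay nearest to Aldh1a3, a retinaldehyde dehydrogenase (0.44), Cxcl5, a neutrophil-attracting chemokine (0.55), and Plekhs1 (0.55). Aldh1a3 and Ltf were both highest on pChePS_GC replicate 1 (12.09 and 11.87) and lowest among pChePS_GC on replicate 3 (9.16 and 9.41). Ngp lay nearest to Ddit4 (0.31), Apold1 (0.34) and Nfil3 (0.36), which were, like Ngp, highest on pChePS_GC replicate 3. These distances describe 11 arrays that share 3 groups.

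Other genes of the neutrophil were examined in 9 related lists. Their counts stand beside those over all genes: 18.7% rose and 23.4% fell in pChePS_GC, and 20.0% rose and 31.8% fell in pCP_GC. Of 4 further azurophil granule genes 0 rose in either group. Prss57 fell in pChePS_GC (-0.33), and Prss57 (-0.51), Elane, the neutrophil elastase (-0.50), and Prtn3, proteinase 3 (-0.37), fell in pCP_GC. Prss57 was under the dim level on every array (means 6.48, 6.15 and 5.96 in NGE, pChePS_GC and pCP_GC). Prtn3 lay just over that level on average (7.30, 7.12 and 6.94), with 2 pCP_GC arrays under it. In pChePS_GC Elane differed by -0.26 (limma adjusted p = 0.0664) and Prtn3 by -0.18 (adjusted p = 0.137). The median differences of that list were -0.23 and -0.43, beside -0.15 and -0.22 for the receptor genes. With array centring all 4 azurophil genes passed as changed in pChePS_GC, from 1.

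Of 8 further specific and gelatinase granule genes, 5 rose in pChePS_GC and 4 in pCP_GC, and 0 fell. Lcn2, the siderophore-binding lipocalin, also made by inflamed epithelium, rose by 4.98 in pChePS_GC (SE 0.36, adjusted p = 3.9e-06) and by 3.24 in pCP_GC (SE 0.39, adjusted p = 0.000133). Mmp9, gelatinase B, rose by 1.81 and 1.41. Olfm4 rose by 2.52 in pChePS_GC (adjusted p = 0.0484) and differed by 2.38 in pCP_GC (adjusted p = 0.0666). The chitinase-like Chil3 rose by 2.26 in pCP_GC (adjusted p = 0.0257), where its arrays overlapped with NGE, and differed by 1.20 in pChePS_GC (adjusted p = 0.173). The list's median difference was 1.47 in pChePS_GC and 1.45 in pCP_GC.

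Of 13 measured surface and cytosolic genes of neutrophils, 7 rose and 1 fell in pChePS_GC, and 4 rose and 1 fell in pCP_GC, with medians of 1.37 and 0.54. Retnlg, a resistin-like protein of mature neutrophils, rose by 2.52 (SE 0.65, adjusted p = 0.011) and 1.85 (SE 0.70, adjusted p = 0.0452). Itgam, the integrin chain CD11b of neutrophils and macrophages, rose by 2.27 and 1.48. Fcgr4, an antibody receptor, rose by 1.89 and 1.61. Trem1, an activating receptor of myeloid cells, rose by 1.96 in pChePS_GC and differed by 1.06 in pCP_GC (adjusted p = 0.0907). Some genes of this list were no higher on average in either cancer group. In NGE, pChePS_GC and pCP_GC, Hdc averaged 8.81, 8.76 and 8.03, and G0s2 averaged 8.17, 8.16 and 7.87. Stfa3 (5.66, 5.23 and 5.29) and Padi4 (7.02, 6.98 and 6.80) had means under the dim level of each group. Ly6g, the marker by which mouse neutrophils are gated, read 5.69 to 6.11 in NGE, 6.33 to 7.16 in pChePS_GC and 6.03, 5.59 and 7.71 in pCP_GC. All but pChePS_GC replicate 4 and pCP_GC replicate 3 were under the dim level of their group, and neither difference passed (0.80, adjusted p = 0.106, and 0.48, adjusted p = 0.333).

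Of 12 chemoattractants and their receptors, 5 rose and 3 fell in pChePS_GC, and 5 rose and 2 fell in pCP_GC. Cxcr2 rose by 2.80 (SE 0.19, adjusted p = 2.78e-06) and 2.06 (SE 0.20, adjusted p = 3.97e-05). Its ligand Cxcl5 rose by 3.40 and 2.70. Cxcl2 rose by 3.29 in pChePS_GC (SE 1.10, adjusted p = 0.034), where it read 7.66, 7.27, 11.89 and 11.78, and differed by 1.78 in pCP_GC (adjusted p = 0.226). Ppbp, a platelet chemokine precursor, rose by 2.72 in pChePS_GC and 3.74 in pCP_GC. Other genes of this list went the other way. Cxcr1 averaged 7.93 in NGE, 7.41 in pChePS_GC and 7.19 in pCP_GC, and Ltb4r1 averaged 7.63, 7.08 and 7.02. For both, every cancer array lay below every NGE array. Alox5 averaged 8.69, 8.03 and 8.63 in the same order. In the list of colony-stimulating factors and the IL-17 axis, 5 of 13 rose in each group, and 0 and 1 fell. Csf2rb, the shared beta chain of the GM-CSF receptor, rose by 2.20 and 1.77, its paralog Csf2rb2 by 2.04 and 1.77, and Il1b by 2.98 and 2.19. Csf2rb and Csf2rb2 are near-identical, so their signals may not be separate.

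Of 7 transcription factors of granulocytes, 4 rose and 1 fell in pChePS_GC, and 3 rose and 2 fell in pCP_GC. Spi1, which encodes PU.1 and is also a macrophage factor, rose by 1.83 and 1.80. Cebpa rose in both (0.75 and 0.46), and Cebpb rose by 0.61 in pChePS_GC with a difference of 0.083 in pCP_GC (adjusted p = 0.75). Cebpe, the C/EBP factor of specific granule formation, fell by 0.42 in pChePS_GC, where its arrays overlapped with NGE, and fell by 0.64 in pCP_GC. Gfi1 fell by 0.47 in pCP_GC and differed by -0.23 in pChePS_GC (adjusted p = 0.101). Of 5 measured subunits of the phagocyte NADPH oxidase, 4 and 2 rose, with Cybb at 4.02 and 3.71 and Cyba at 1.78 and 1.24.

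Among 8 ligands and receptors of the proteins studied, 2 rose and 3 fell in pChePS_GC, and 2 rose and 4 fell in pCP_GC. Anxa1, whose protein acts on formyl peptide receptors, rose by 2.81 and 2.70, and Saa3, a serum amyloid A, by 3.80 and 4.90. Cd36, a scavenger receptor that binds calprotectin with fatty acids, fell by 3.26 and 3.41. Of 14 other S100 genes, 3 rose and 1 fell in pChePS_GC, and 4 rose and 2 fell in pCP_GC. Over all genes 18.7% rose and 23.4% fell in pChePS_GC, and 20.0% and 31.8% in pCP_GC. S100a10 (1.49 and 1.40), S100a11 (0.76 and 0.63) and S100a16 (0.38, with overlapping arrays, and 0.58) rose in both. S100a4 rose by 0.79 in pCP_GC and differed by 0.18 in pChePS_GC (adjusted p = 0.324). The medians of the other S100 genes were -0.21 and -0.23. With array centring the genes that passed went from 4 to 9 of these S100 genes in pChePS_GC and from 6 to 10 in pCP_GC, from 5 to 8 of the ligands and receptors in pChePS_GC, from 5 to 8 of the colony-stimulating factor list in pChePS_GC, and from 5 to 3 of the transcription factors in pCP_GC. With quantile normalization the azurophil genes that passed in pCP_GC went from 3 to 1. Between the cancer groups 0 of the 84 genes measured on the 9 lists passed in limma, and 17 had an unadjusted p under 0.05, as did 16.5% of all genes. Lcn2 was 1.74 higher in pChePS_GC (adjusted p = 0.0938), Cxcr2 0.74 (adjusted p = 0.149), Ly6g 0.31 (adjusted p = 0.719) and Elane 0.24 (adjusted p = 0.317).

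**Figure D4:**
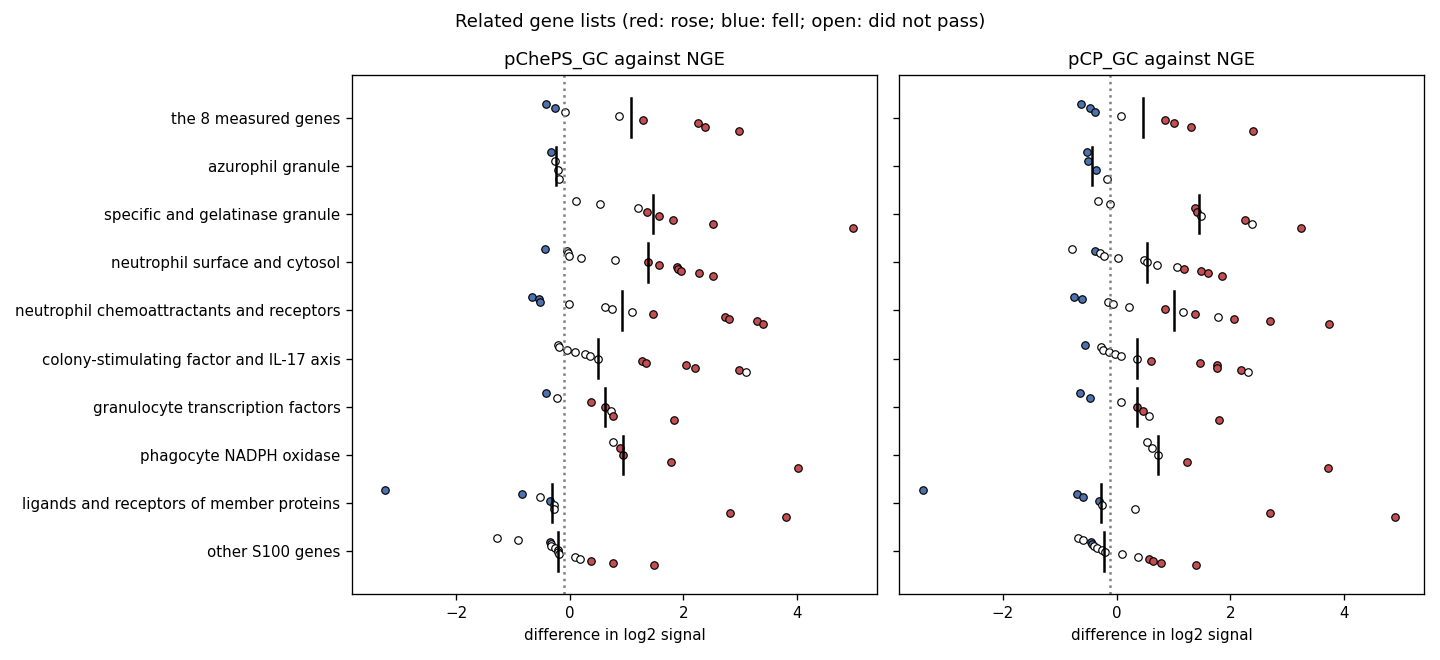
Difference in log2 signal from NGE on the x axis for every measured gene of the 8 studied and of the 9 related lists, for pChePS_GC and pCP_GC; black bars are list medians and the dotted line is the median of all genes (-0.10 and -0.12). Azurophil granule genes lie at or below 0 in both panels, while Lcn2 lies at 4.98 and 3.24 on the specific and gelatinase granule row.

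As list means, markers of macrophages and of all leukocytes were also higher on every cancer array than on every NGE array. The part of other cell types in the levels of S100a8, S100a9, Ltf and Csf3r was not tested. Over all genes 18.7% rose and 23.4% fell in pChePS_GC, and 20.0% and 31.8% in pCP_GC. In the macrophage and monocyte list 10 of 13 genes rose in pChePS_GC and 11 of 13 rose and 1 fell in pCP_GC. The mean level of that list lay at 7.25 to 7.36 in NGE, 9.40 to 10.01 in pChePS_GC and 9.15 to 10.23 in pCP_GC. Its highest array, pCP_GC replicate 2, was among the lowest cancer arrays for S100a8 (7.99), S100a9 (8.005) and Ltf (8.99), and the highest of pCP_GC for Csf3r (8.21). In the list of all leukocytes 3 of 4 genes rose in each group, with means of 8.49 to 8.61 in NGE, 9.59 to 10.59 in pChePS_GC and 9.72 to 10.65 in pCP_GC. That list too was highest on pCP_GC replicate 2 (10.65). Its lowest cancer array was pChePS_GC replicate 1 (9.59), where Ltf was highest (11.87), while S100a8, S100a9 and Csf3r were lowest of pChePS_GC (8.55, 9.20 and 8.09).

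The counts of the other marker lists also stand beside 18.7% higher and 23.4% lower over all genes in pChePS_GC, and 20.0% and 31.8% in pCP_GC. In the squamous epithelium list 2 of 14 genes rose and 1 fell in pChePS_GC, and 1 rose and 3 fell in pCP_GC. Ivl rose by 2.05 and 2.90 (limma adjusted p = 0.041 and 0.0101), with every cancer array above every NGE array. Krt4 rose by 2.00 in pChePS_GC (adjusted p = 0.0472), where its arrays overlapped with NGE. Sprr3 was lower in both groups (-0.47 and -0.63), and Krt15 was lower in pCP_GC (-0.48). The mean level of the list overlapped between groups (7.12 to 7.60 in NGE, 7.23 to 7.89 in pChePS_GC and 7.01 to 7.62 in pCP_GC). Eosinophil markers did not rise: 2 and 4 of 8 fell, at means of 6.74 to 7.13, 6.77 to 6.84 and 6.62 to 6.69. Mast cell markers gave 1 fall of 10 in pChePS_GC and 1 rise in pCP_GC, at means of 7.62 to 8.37, 6.80 to 8.21 and 7.94 to 8.76. T and natural killer cell markers gave 2 falls and 1 fall of 10, at 6.88 to 6.94, 6.53 to 7.19 and 6.74 to 6.98. B and plasma cell markers gave 1 rise of 5 in each group, at 6.62 to 6.89, 7.11 to 9.36 and 6.72 to 8.49. Gastric epithelial markers gave 2 rises and 6 falls of 10 in pChePS_GC, and 1 rise and 3 falls in pCP_GC. Atp4a differed by -5.51 and -5.32 and Atp4b by -6.14 and -5.52. Epcam read 11.19 to 11.66 in NGE, 11.86 to 12.20 in pChePS_GC and 11.99 to 12.36 in pCP_GC.

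**Figure D5:**
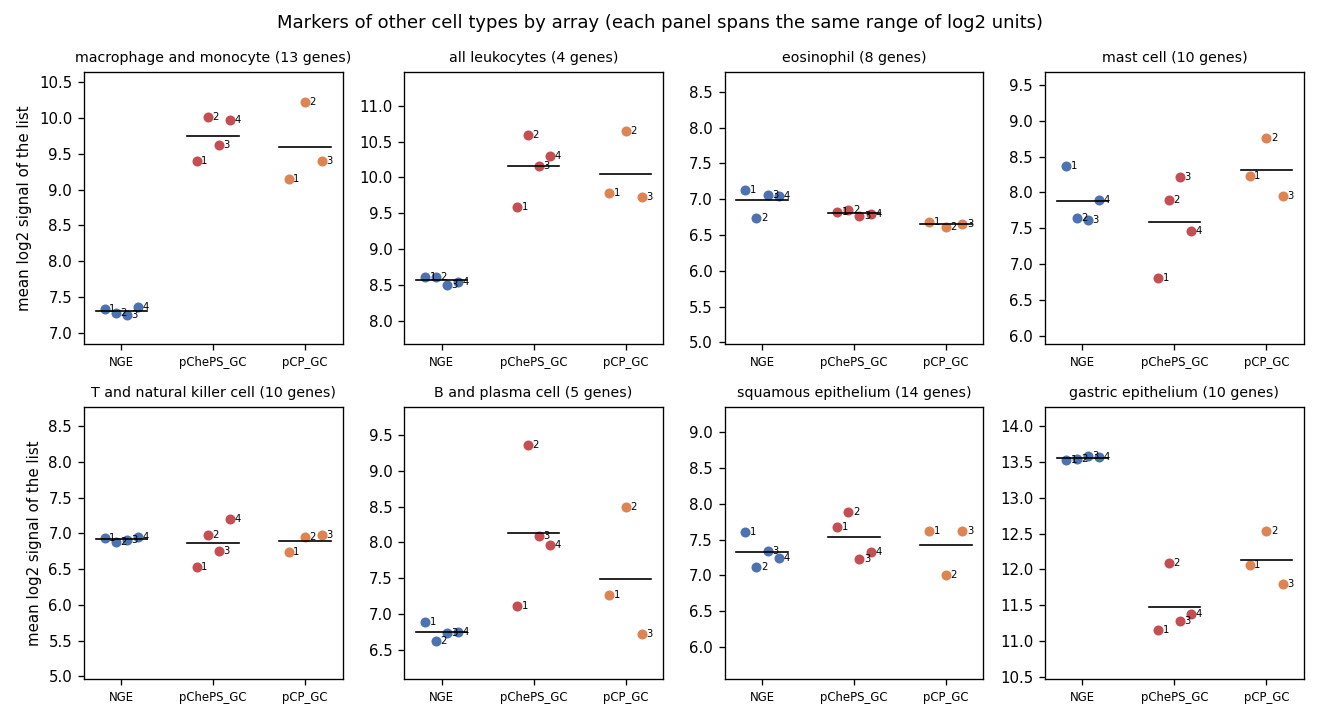
Mean log2 signal of 8 marker lists on each array by group (points, with the replicate number; bars are group means; each panel spans the same range of log2 units). The means of the macrophage and leukocyte lists are above NGE on every cancer array, and those of the squamous and T cell lists overlap between groups. The mean of the gastric epithelial list is lower on every cancer array, though not each of its genes is.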

How the data were processed

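Biotin-labelled total RNA of 11 mouse stomach samples was measured on Affymetrix arrays. The authors deposited normalized log2 signals, 1 per probe set and sample; the unit was inferred from the values, which run from 2.88 to 14.6. The submitters' processing notes name Expression Console. Which version and algorithm they ran is not given in the sources used here. Of 35556 probe sets, 21789 carried 1 gene symbol in the platform annotation, 1621 several and 12146 none. The probe set with the highest mean was kept for each of 19938 genes. The number of arrays limits the precision.

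Group means were fitted to all 11 arrays with limma 3.58.1 (R 4.3.3, lmFit and eBayes), which shares 1 spread per gene over the groups. Its two-sided p-values were adjusted over all 19938 genes (Benjamini-Hochberg), with a threshold of 0.05. The fit was tested on simulated data with few changed genes and the same spread in every group. That test cannot check the shared spread where groups differ in spread, as NGE and the cancers do. The members and lists were chosen with earlier results of these data known. Of each related list the text names up to 3 genes with the largest change that passed, plus Ly6g, Cxcr2, Elane and Lcn2. It gives them in both comparisons with NGE. Cxcr1, Ltb4r1, Alox5, Stfa3, Hdc, G0s2 and Padi4 were added outside this rule, by their group means. Of the marker lists a few genes are named beside the counts. Replicate numbers were not treated as pairs. Alternatives changed the variance prior, groups fitted, normalization, dim-gene filter, probe set summary, array weights, block, thresholds and arrays.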

Additional observations from a re-analysis of the deposited data

Results flagged for a closer look

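In groups of 4 arrays, an array was singled out where its gap to the nearest other array was a larger part of the group's range than Dixon's 95% critical value. Among 42 genes in 2 groups each, 5 of 84 such sets met this, and chance gives about 1 in 20. Mpo, an azurophil granule enzyme, was lowest on pChePS_GC replicate 2, at 7.03 against 7.12 to 7.13 on the other arrays of the group. The chemokine receptor gene Cxcr2 was lowest on pChePS_GC replicate 1, at 8.39 against 8.81 to 8.89. Its ligand gene Cxcl5 was lowest on pChePS_GC replicate 3, at 9.19 against 10.16 to 10.25. S100a10 was highest on pChePS_GC replicate 3, at 13.33 against 12.76 to 12.83. S100a11 was highest on NGE replicate 1, at 12.95 against 12.71 to 12.72.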

How the results depend on the processing

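The rises of S100a8, Ltf and Csf3r against NGE kept their direction and an adjusted p under 0.05 in both cancer groups under every alternative that held the gene, and S100a9 did so in pChePS_GC. The genes called among the 8 were 2 in each comparison with NGE without the dimmest 50% of genes, a filter that removed 6 of them, and in pCP_GC 4 at an adjusted p under 0.01 and 3 when a 2-fold change was also required. Without single arrays the 8 genes gave 4 to 6 calls in pChePS_GC, 5 to 7 in pCP_GC and 0 between the cancer groups. Calls over all genes were 4881 and 4611 (from 8386 and 10337, pChePS_GC and pCP_GC against NGE) without the dimmest 50%, 4411 and 6682 at an adjusted p under 0.01, and 2057 and 2185 at 2-fold. The counts without the dimmest 50% come from only the genes kept, while 8386 and 10337 are out of 19938 genes. A lower count under that filter is therefore not by itself a lower share. Between the cancer groups, 73 calls became 0 with only those groups fitted, 31 without the dimmest 50%, 188 with array weights, 12 at an adjusted p under 0.01 and 42 at 2-fold. Without single arrays the calls over all genes were 6107 to 8773, 8344 to 10627 and 26 to 154 in the 3 comparisons. Same-numbered arrays did not deviate together throughout (r = -0.15 to 0.16), so numbers were not taken as pairs. With the replicate number as a block the 8 genes gave 6, 7 and 0 calls and all genes 8553, 9610 and 0. Small differences that had not passed changed sign: Csf3 in pChePS_GC to 0.030 without pChePS_GC replicate 2 (-0.18 to 0.030 without single arrays), and Ngp in pCP_GC to -0.14 with array centring, -0.069 with array weights, -0.020 without NGE replicate 2 and -0.39 without pCP_GC replicate 3 (-0.39 to 0.33 without single arrays). The cause was not tested for any of these beyond fewer genes or arrays. Signal at or under the dim level limits Ngp, Ly6g, Prss57, Stfa3 and Padi4 in all groups and S100a8 and Csf3r in NGE. Signal not far over the dim level limits Mpo, Prtn3 and Csf3 in all groups, Camp in the cancer groups and S100a9 and Ltf in NGE. Related genes that rose also started under the dim level of NGE (7.24) on average. Among them were Lcn2 (7.23), Cxcr2 (5.95), Retnlg (6.26), Cxcl5 (6.55), Cybb (6.77) and Saa3 (6.46), which limits the size of their rises.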

Other observations

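Several inflammatory genes divided the pChePS_GC arrays into replicates 1 and 2 against replicates 3 and 4. Il6 read 5.14 and 5.58 on pChePS_GC replicates 1 and 2 and 9.79 and 9.72 on replicates 3 and 4. The chemokine Cxcl3 read 6.73 and 6.99 and then 9.37 and 9.13, Il1b 8.94 and 9.04 and then 11.29 and 11.82, and Retnlg 7.66 and 7.82 and then 9.94 and 9.70. Cxcr2 was 8.39 and 8.89 and then 8.89 and 8.81 on the same arrays. These genes were picked after their values were seen, the arrays carry no label that separates them, and no test was made.

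Cd14, the lipopolysaccharide co-receptor of monocytes and macrophages, was the only gene of all the lists examined to pass between the cancer groups in limma. It read 11.35, 11.68, 11.79 and 11.47 in pChePS_GC and 10.29, 10.40 and 10.30 in pCP_GC, a difference of 1.24 (adjusted p = 0.00484), with 7.41 to 7.70 in NGE. The call was lost with only the cancer groups fitted and with the replicate number as a block, where 0 genes passed in all.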
